A study of Mus musculus with 8 samples.

Results

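The data describe the contacts of 5 neighbouring genes on mouse chromosome 6, namely Apobec1, Gdf3, Dppa3, Nanog and Slc2a3, in H3K27ac HiChIP libraries of embryonic stem cells. In HiChIP, fragments that are near each other in the nucleus are ligated, and antibodies then pull down the joined fragments on a chosen chromatin protein. The antibody here was against H3K27ac, an acetylation of histone H3 found at active promoters and enhancers. A loop is a pair of genomic anchors, and its value is the number of read pairs that join them. Loops were chosen when at least one anchor lay within 5 kb of an annotated start of one of the 5 genes, a choice that used positions and no counts. This gave 194 of 415681 loops, of which 66 reached 5 counts in 2 or more libraries and could be tested, beside 44706 loops tested in all. The 128 other loops held 1 to 24 counts each over the 8 libraries, with a median of 3.

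The libraries came from 4 stem cell lines with 2 technical replicates each. B6 (line B6 5-1) was derived from C57BL/6J and D2 (line D2 5-5) from DBA/2J. B6-13D2 (line QJ 6-1, B6.D2-(rs30079041-rs51756099)/Bakr) carries an interval of chromosome 13 from D2 in a B6 genome. D2-13B6 (line XE 2-4) carries the B6 interval in a D2 genome, and the labels disagree on one end marker of that interval. Every group is 1 cell line, so its replicates measure the spread between libraries and not between independently derived lines. All lines were grown with serum, LIF, 1 µM of the MEK inhibitor PD0325901 and 3 µM of the GSK3 inhibitor CHIR99021. The 5 genes lie on chromosome 6, outside the exchanged chromosome, so by the labels both D2-background lines carry D2 DNA here and both B6-background lines B6 DNA.

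Nanog encodes a homeodomain factor of the pluripotency network, and Dppa3 (also known as Stella) encodes a protein that protects maternal DNA methylation in the early embryo. Gdf3 is a ligand of the TGF-beta family, Slc2a3 is the glucose transporter GLUT3, and Apobec1 is a cytidine deaminase best known for editing the messenger RNA of apolipoprotein B. Active enhancers are acetylated at this lysine and can contact the promoters of more than one gene. Enhancers around Nanog are known to serve neighbouring genes of this cluster in stem cells.

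The RefSeq promoter table for GRCm38.p6 matched 2 of the 5 genes, Nanog and Apobec1. The 250 bases before the Nanog start at position 122707489 (chr6:122707239-122707488, plus strand) are shown because the bin that holds them is the bait of the Nanog profiles below. Capitals mark the letters TTTGCAT of a POU (octamer) motif and the letters ACAATG of a SOX motif, both searched on both strands.

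Nanog: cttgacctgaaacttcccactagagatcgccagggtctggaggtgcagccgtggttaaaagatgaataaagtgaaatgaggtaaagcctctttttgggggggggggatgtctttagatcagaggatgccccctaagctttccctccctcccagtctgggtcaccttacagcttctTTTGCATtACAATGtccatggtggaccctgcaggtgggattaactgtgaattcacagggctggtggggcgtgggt

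The POU letters begin at -75 and the SOX letters at -67 from this start, with 1 base between them. Over all 32851 promoter windows of the table, 4.63% held the POU letters and 12.6% the SOX letters. The joined letters TTTGCATNACAATG, a string chosen after the Nanog sequence was seen, stood in 2 windows (0.00609%), both of them Nanog windows of the table that overlap. The Apobec1 window (chr6:122602395-122602694, minus strand) held the POU letters and not the SOX letters.

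The 5 genes lay at 4 merged anchors of the deposited table. Apobec1 (start 122602444), Gdf3 (start 122610087) and Dppa3 (start 122626410) shared 1 anchor of 30 kb, chr6:122600001-122630000, called the Dppa3 anchor here. The Nanog anchor, chr6:122685001-122720000, covered 35 kb. The Slc2a3 anchor, chr6:122725001-122790000, covered 65 kb and holds the main starts at 122742262 to 122742920, besides starts of other transcript types at 122733176 and 122779957. The last anchor, chr6:122800001-122830000, entered only through a single protein-coding transcript of Slc2a3 that starts far upstream at 122801640. It also holds starts of Foxj2, a forkhead factor, and is called the Foxj2 anchor here. The median anchor of the series covered 5 kb, and the Slc2a3 anchor was wider than 99.7% of all 30044 anchors. Levels of anchors of unequal width are therefore compared per pair of 5-kb bins or with single bins.

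Libraries held 737955 to 1425304 counts, of which the 194 loops took 1705 to 4217. The D2-13B6 libraries were the deepest, and they stood apart in a second way. Chromosome 11 held 13.9% and 14.0% of their counts and 10.0% to 10.6% of those of the other 6 libraries. Chromosome 6 held 5.49% and 5.54%, and 5.70% to 5.97% in the others. Background results are also given with D2 as the only D2-background line in the contrast, within the same fit. The stem cell markers Pou5f1, Sox2, Esrrb, Zfp42, Klf4 and Tfcp2l1 were all tested, with summed gene sums of 1572 and 1667 CPM (counts scaled to a common library size) in D2-13B6 and 1311 to 1498 CPM in the other 6 libraries. Of these markers, Sox2 and Esrrb were highest in both D2-13B6 libraries and Zfp42 was lowest there (49.9 and 50.7 CPM). Pou5f1, Klf4 and Tfcp2l1 lay within the range of the other libraries. The part of this higher marker sum in the results at the locus was not tested. Of 17 markers of primed epiblast, trophoblast, primitive endoderm and fibroblasts, 6 had enough contacts to test. Of these, 1 was called in any of the 6 contrasts, Col1a1, a collagen of fibroblasts, lower with the D2 allele of the interval (-0.61, edgeR FDR 0.016). In that contrast 8.58% of all genes were called. The other tested fibroblast marker, Col1a2, went the other way without passing (0.34, edgeR FDR 0.39). It was higher in D2 against the mean of B6 and B6-13D2 (0.77, edgeR FDR 0.0459). The fibroblast markers together had 26.3 to 31.6 CPM in B6-13D2 and 35.2 to 44.2 in the other libraries, and their part in the results was not tested.

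At equal width, the bin at the Slc2a3 start had the most listed contacts and the bin at the Dppa3 start the fewest. Listed pairs join only bins in merged anchors, so the 5 bins had different sets of listed neighbours. The Dppa3 bin had no listed pair with the bin 10 kb above it, where listed pairs of that distance had a median of 105 counts. The 5-kb bin at each gene's main start was compared in CPM of the whole library. The Slc2a3 bin had 191 and 178 in B6, 164 and 195 in B6-13D2, 185 and 145 in D2, and 212 and 245 in D2-13B6. The Nanog bin had 142 and 136 in B6, 115 and 125 in B6-13D2, 156 and 129 in D2, and 175 and 203 in D2-13B6. At both genes the D2-13B6 libraries were the highest 2 of the 8. The other 3 lines overlapped at Slc2a3, while at Nanog both B6-13D2 libraries lay below those of B6 and D2.

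At the remaining 3 genes the D2-13B6 libraries lay within the range of the others, and at Gdf3 both B6 libraries (90.3 and 90.8) were the highest. Apobec1 ranged from 92.8 to 142 CPM of the whole library over the 8 libraries (mean 113 ± 14.7, SD), Gdf3 from 72.3 to 90.8 (mean 80.1 ± 7.81, SD) and Dppa3 from 46.1 to 81.8 (mean 66.0 ± 10.4, SD). Slc2a3 averaged 189 ± 30.3 and Nanog 147 ± 29.2 (SD, n = 8). In this order the neighbours overlapped in range: Slc2a3 with Nanog, Nanog with Apobec1, and Gdf3 with Dppa3, while the lowest Apobec1 library (92.8) lay just above the highest Gdf3 library (90.8).

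**Figure D1:**
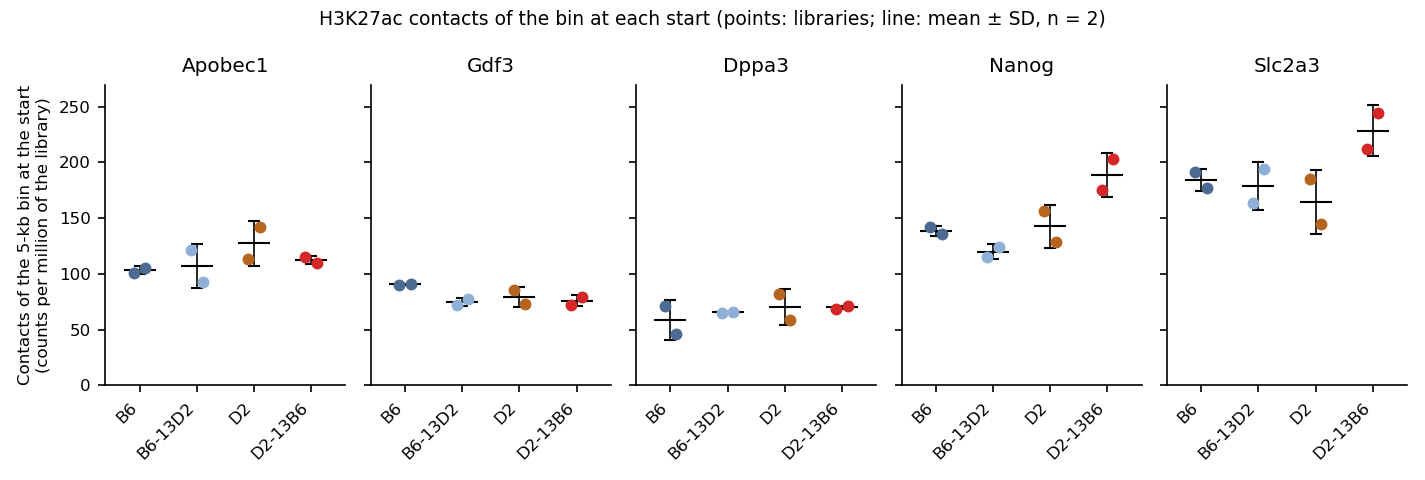
Contacts of the 5-kb bin at each gene's main start in CPM of the library, by line. Points are the 2 libraries of a line, and lines with bars give mean and SD (n = 2). The D2-13B6 libraries are the highest at Nanog (175 and 203) and Slc2a3 (212 and 245), while the lines overlap at Apobec1 and Dppa3.

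The partners of the 5 start bins differed in where they lay. The Slc2a3 bin contacted mainly the stretch upstream of its start, towards higher coordinates, and only 29.9% of its 1648 counts went to lower coordinates. Its pair with the bin 20 kb away held 183 counts, more than 99.7% of all listed bin pairs at that distance, whose median was 36. The Nanog bin spread its 1279 counts more evenly, with 52.5% to lower coordinates. Its pair with the bin 35 kb before it (chr6:122670001-122675000) held 72 counts, more than 98.4% of the 12488 listed pairs at that distance (median 18).

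The Nanog start and that distal bin were joined in every library. The counts were 11 and 4 in B6, 4 and 7 in B6-13D2, 10 and 7 in D2, and 16 and 13 in D2-13B6. The bins at 40 and 45 kb before Nanog had 51 counts (above 96.8% of pairs at that distance) and 46 counts (above 97.1%). These 3 bins lie in 1 merged anchor, chr6:122660001-122680000, which has no protein-coding start within 5 kb and is called the intergenic anchor here.

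The Apobec1 and Gdf3 bins had their pairs of most counts with each other and with the stretch just beyond Apobec1. Apobec1 had 188 counts with the bin chr6:122590001-122595000, above 81.2% of pairs at 10 kb, and 141 counts with the Gdf3 bin, above 66.7%. Gdf3 had 65 counts with chr6:122590001-122595000, above 83.3% of pairs at 20 kb. The pair of the Dppa3 bin with the most counts, 61 with chr6:122615001-122620000, was above 22.7% of pairs at 10 kb. Its pair with the bin 20 kb before it held 49 counts, above 68.9% of pairs at that distance.

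Direct pairs of 2 start bins were sparse beyond 50 kb. Nanog and Slc2a3, 35 kb apart, shared 34 counts, above 83.8% of pairs at that distance. Apobec1 and Nanog shared 13 counts at 105 kb, above 87.7%, and Gdf3 and Slc2a3 shared 9 counts at 130 kb, above 82.4%. Dppa3 and Nanog, 80 kb apart, shared 6 counts over all 8 libraries, above 38.1% of listed pairs at that distance (median 7). Pairs with no count in any library, or with a bin outside the merged anchors, are not listed in the files, so these percentages are among listed pairs.

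**Figure D2:**
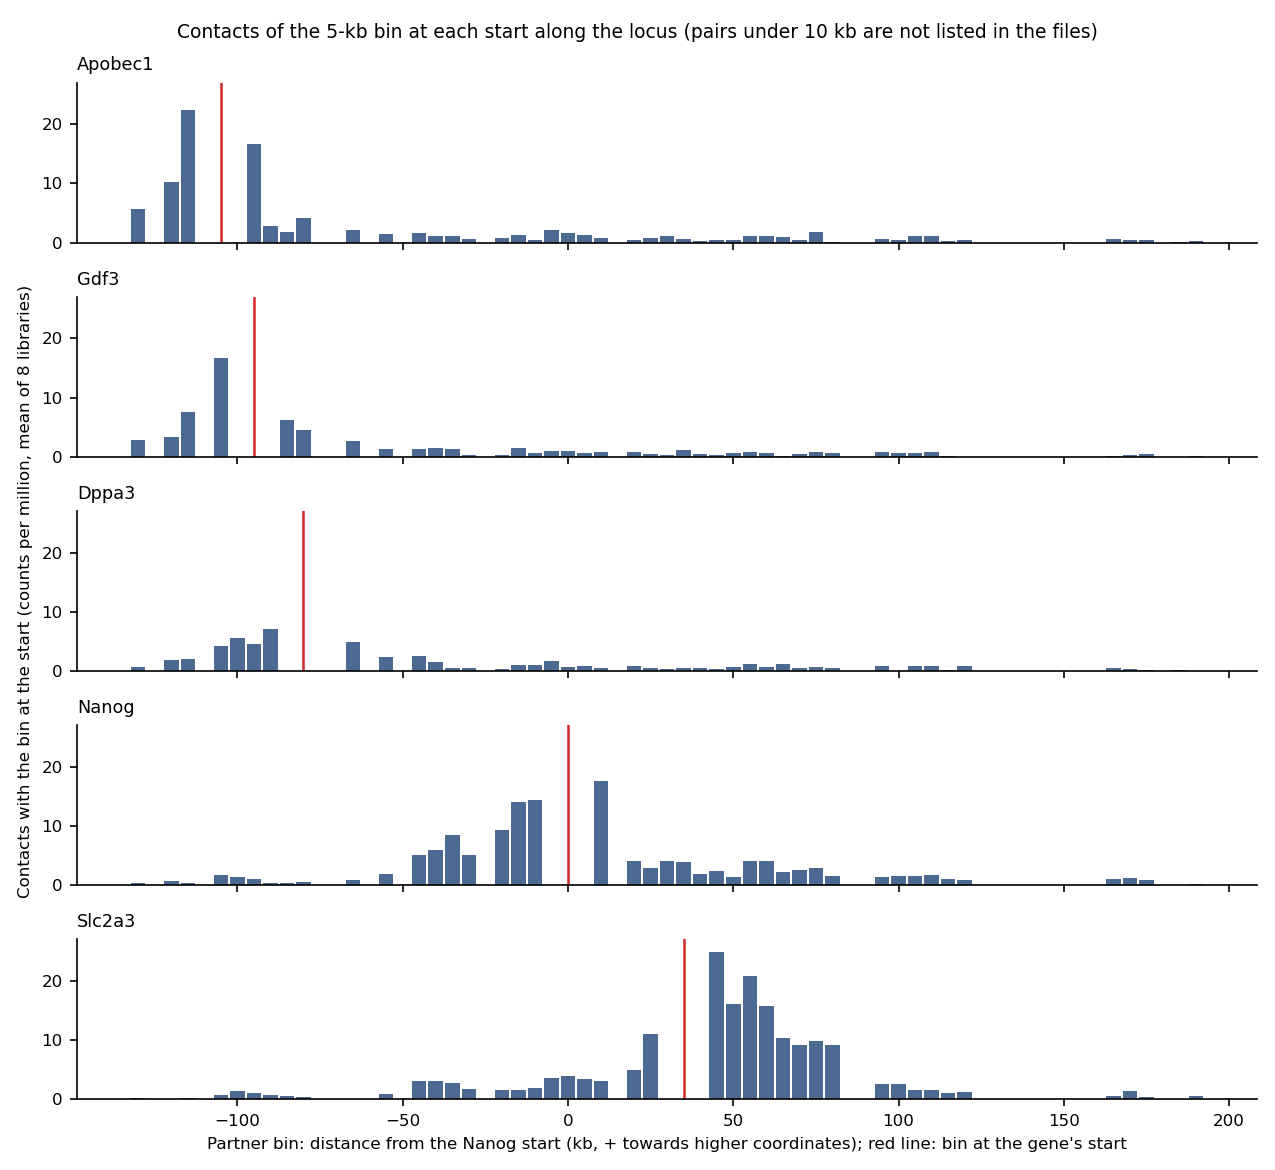
Contacts of the 5-kb bin at each start with other bins, in CPM of the library averaged over 8 libraries, against distance from the Nanog start in kb. The red line is the bin at the gene's own start. Nanog has a second group of partners about 30 to 45 kb before its start, and the partners of Slc2a3 lie mostly beyond its start at higher coordinates.

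Over merged anchors, the loops with the most contacts lay inside the anchors and between neighbours. Loop levels are CPM of tested loops with TMM library scaling (a scaling by the trimmed mean of ratios between libraries), averaged over 8 libraries. Contacts inside the Slc2a3 anchor had 765 CPM, those inside the Nanog anchor 229, inside the Foxj2 anchor 101 and inside the Dppa3 anchor 71.7. The Slc2a3 and Nanog anchors are also the wider ones, while the Foxj2 and Dppa3 anchors both cover 30 kb. The order is not a comparison of the genes. The loop from Nanog to Slc2a3 had 276 CPM, more than 99.7% of 2585 tested loops within 10% of its span of 55 kb. Divided by its number of 5-kb bin pairs it had 3.03 CPM, more than 85.5% of those loops (median 1.80).

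The other loops between promoter anchors ranked near the middle per bin pair. Slc2a3 to the Foxj2 anchor had 172 CPM (2.21 per bin pair, above 68.7% of loops of like span) and Nanog to the Foxj2 anchor 57.7 CPM (1.37, above 69.6%). The Dppa3 anchor had 64.2 CPM with Slc2a3 (0.823, above 48.6%), 43.7 with Nanog (1.04, above 34.1%) and 23.5 with the Foxj2 anchor (0.651, above 50.8%). The Dppa3 anchor was thus joined to each of the other promoters, at densities near or below the median of loops of like span.

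The intergenic anchor was the strongest partner that held no promoter. It had 272 CPM with Nanog, 150 with Slc2a3, 34.9 with the Dppa3 anchor and 29.1 with the Foxj2 anchor, or 3398 counts in all. Its Nanog loop had 301 and 209 CPM in B6, 259 and 291 in B6-13D2, 247 and 275 in D2, and 292 and 300 in D2-13B6. The other 6 libraries all lay between the 2 B6 libraries. Per bin pair this loop was above 98.7% of loops of like span, and the intergenic loop to Slc2a3 above 94.7%. The Nanog anchor took 1913 of the counts of the intergenic anchor with the 4 promoter anchors, and the Slc2a3 anchor 1039.

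The next partners by summed counts met the promoter anchors in different proportions, which depend in part on the widths of these anchors. The anchor chr6:122585001-122595000, which holds no protein-coding start within 5 kb, had 826 counts with the promoter anchors. Of these, 616 were with the Dppa3 anchor (87.3 CPM) and 78 with Nanog. Its 2 bins had 89 and 188 counts with the Apobec1 start bin, 29 and 65 with that of Gdf3, and 18 and 18 with that of Dppa3. The anchor at Necap1 (chr6:122870001-122885000), a gene of clathrin-mediated endocytosis, had 288 counts with the Foxj2 anchor, 274 with Slc2a3, 124 with Nanog and 61 with the Dppa3 anchor. The anchor at Phc1 (chr6:122330001-122370000), which encodes a subunit of Polycomb repressive complex PRC1, had 241 with Slc2a3, 174 with the Dppa3 anchor, 132 with Nanog and 97 with the Foxj2 anchor. One anchor at Rimklb (chr6:122465001-122480000) had 138 with the Dppa3 anchor and 124 with Slc2a3. Per 5-kb bin of the promoter anchor, Phc1 had 29.0 counts with the Dppa3 anchor, 18.9 with Nanog, 18.5 with Slc2a3 and 16.2 with the Foxj2 anchor, so that Slc2a3 no longer led. Necap1 had 48.0 per bin with the Foxj2 anchor and 21.1 with Slc2a3, and the Rimklb anchor 23.0 with the Dppa3 anchor and 9.54 with Slc2a3. These anchors and the intergenic one were each joined by tested loops to all 4 promoter anchors.

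**Figure D3:**
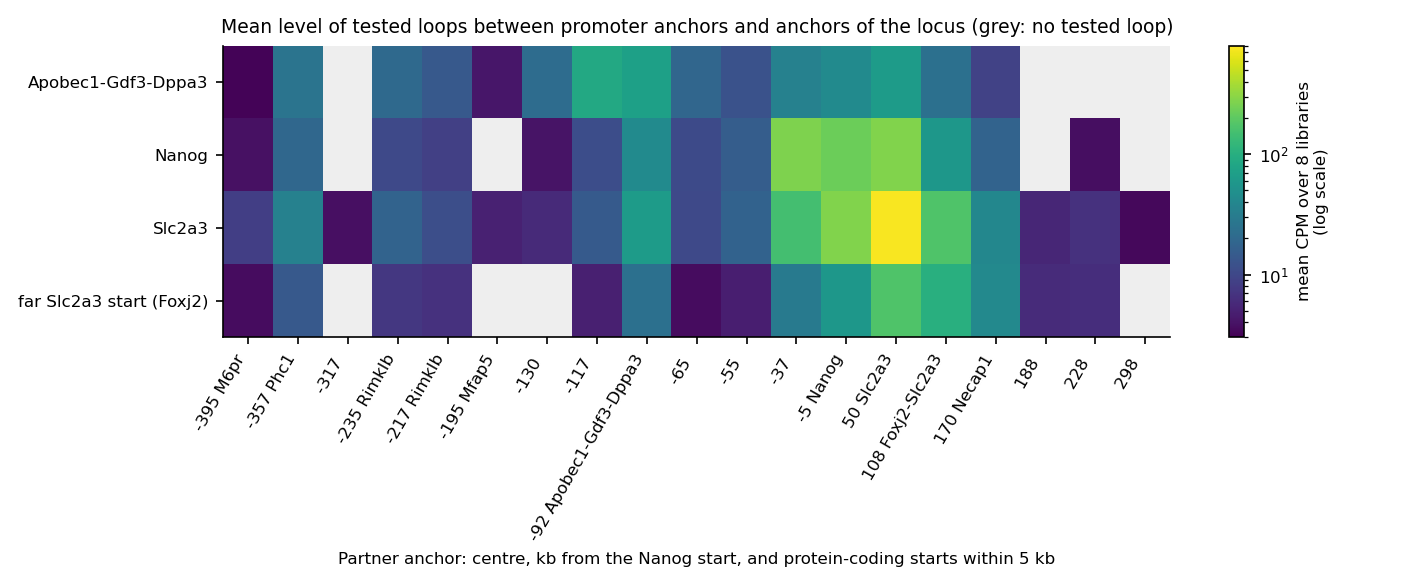
Mean CPM over 8 libraries (colour, log scale) of tested loops between the 4 promoter anchors (rows) and anchors of the locus (columns, labelled by the distance of their centre from the Nanog start in kb and by protein-coding starts within 5 kb). Grey cells had no tested loop, and 5 partner anchors over 1.5 Mb away are not drawn. The Nanog and Slc2a3 rows share their brightest cells, while the anchor at -117 kb is brightest in the row of the Dppa3 anchor.

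Sharing of partners was common here and across the genome. Of 20 anchors joined by tested loops to the 4 promoter anchors, 15 (75.0%) were joined to 2 or more and 9 to all 4. Over all partners of promoter anchors in the series, 10212 of 15165 (67.3%) were joined to 2 or more promoter anchors. Among partners with no protein-coding start the shares were 7 of 9 (77.8%) and 55.0%. A stricter minimum of 10 counts left 8 of 10 shared partners here, against 53.8% in the series. With 20 partners of 4 neighbouring anchors these shares are a description, and no difference from the series was tested. The shares were also counted in unlike ways. Here only joins to the 4 promoter anchors count, and partners lie outside them, while the series counts joins to any promoter anchor. The 4 anchors covered 30 to 65 kb, beside a median of 5 kb in the series.

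The design crosses background genome with the chromosome 13 interval, and 6 contrasts were tested with edgeR (quasi-likelihood test, Benjamini-Hochberg false discovery rate, FDR, over the whole table, called under 0.05). Between the parental lines, D2 against B6, 0 of the 66 loops were called, where 2.65% of all tested loops were. At an unadjusted p under 0.05 there were 4, and DESeq2 called 0. DESeq2 gave no adjusted p for 30336 of the 44706 loops in this contrast. It gave none for 42470 in B6-13D2 against B6 and in D2 against D2-13B6, so its counts cover only part of the loops. For the D2 interval in a B6 genome, B6-13D2 against B6, 0 loops were called (0.859% of all loops; 5 unadjusted, DESeq2 0). For the interval in a D2 genome, D2 against D2-13B6, 1 loop was called (0.922% of all). It lay inside the Slc2a3 anchor and was lower in D2, with a log2 fold change of -0.41 (edgeR FDR 0.0252). DESeq2 also called 1. The edgeR call was kept under 6 of 16 alternatives (log2 fold change -0.58 to -0.11). Losses included those without either D2 or either D2-13B6 library and with library totals, RLE factors, the stricter filter, no filter or the trend removed. With no filter, 0 of 263489 loops of the series were called in this contrast.

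The averaged interval effect (D2 allele minus B6 allele) gave 0 calls (0.986% of all; 10 unadjusted, DESeq2 0), and the interaction gave 0 (0.606%; 2 unadjusted, DESeq2 0). DESeq2 gave no adjusted p for 41604 loops in the interval effect and 42470 in the interaction. The averaged background effect (D2 genome minus B6 genome) gave 6 calls, all higher in the D2 background. This is 9.09% of the 66 loops, against 8.85% of all tested loops, so the share was that of the genome. The median log2 fold change was 0.11 over the 66 loops and 0.02 over all loops. DESeq2 called 0 of the 66, with adjusted p of 0.0655 to 0.316 for these 6. Of all 44706 loops it called 1244 and gave no adjusted p for 24269. With D2-13B6 left out of the contrast edgeR called 0 of the 66 loops, and without the Foxj2 anchor 3 calls were left. With no filter on low counts 0 calls were left, where 169 of 263489 loops of the series were called. Leaving out single libraries gave 2 to 7 calls, with 2 without D2 replicate 1 or D2-13B6 replicate 2 and 3 without D2 replicate 2.

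The 6 loops joined the Slc2a3 side of the locus to itself, to Nanog and to the intergenic anchor, with 1 exception. Contacts inside the Slc2a3 anchor had 749 and 657 CPM in B6, 647 and 731 in B6-13D2, 717 and 713 in D2, and 902 and 1004 in D2-13B6. Both D2-13B6 libraries lay above the other 6, which overlapped. The background effect was 0.24 (SE 0.079, edgeR FDR 0.0307). Contacts inside the Foxj2 anchor had 91.1 and 68.6 CPM in B6, 79.2 and 86.0 in B6-13D2, 103 and 90.5 in D2, and 149 and 140 in D2-13B6. Again D2-13B6 was the highest line, and the effect was 0.53 (SE 0.14, edgeR FDR 0.00238).

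The loop from Slc2a3 to the Foxj2 anchor had 137 and 165 CPM in B6, 153 and 140 in B6-13D2, 164 and 197 in D2, and 183 and 238 in D2-13B6. Here 1 D2 library lay within the range of the B6-background libraries, and the effect was 0.39 (SE 0.11, edgeR FDR 0.00872). The loop from Nanog to the Foxj2 anchor had 52.4 and 52.3 CPM in B6, 38.4 and 39.8 in B6-13D2, 66.1 and 52.4 in D2, and 80.3 and 79.8 in D2-13B6. The effect was 0.61 (SE 0.17, edgeR FDR 0.00709), the largest of the 6.

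The loop from the intergenic anchor to Slc2a3 had 129 and 140 CPM in B6, 122.5 and 126.7 in B6-13D2, 197 and 148 in D2, and 166 and 171 in D2-13B6. All 4 D2-background libraries lay above all 4 B6-background ones, with an effect of 0.40 (SE 0.12, edgeR FDR 0.0106). The intergenic loop to Nanog described above, at the same distal anchor, had an effect of 0.06 (SE 0.10, edgeR FDR 0.809).

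The exception was the loop from the Dppa3 anchor to Nanog, which touches neither Slc2a3 nor the Foxj2 anchor. The start bins of Apobec1, Gdf3 and Dppa3 shared 13, 8 and 6 counts with that of Nanog over all libraries. The loop had 41.2 and 40.8 CPM in B6, 33.4 and 28.1 in B6-13D2, 53.1 and 52.4 in D2, and 49.1 and 51.8 in D2-13B6. The D2-background libraries did not overlap the others and both D2 lines were alike, with an effect of 0.55 (SE 0.19, edgeR FDR 0.0438). This call was the least stable of the 6 and was kept under 5 of 16 alternative settings. The loop from Nanog to Slc2a3 just missed the threshold in the same contrast, at 0.27 (SE 0.10, edgeR FDR 0.0541), with 314 and 357 CPM in D2-13B6 and 234 to 275 CPM elsewhere.

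**Figure D4:**
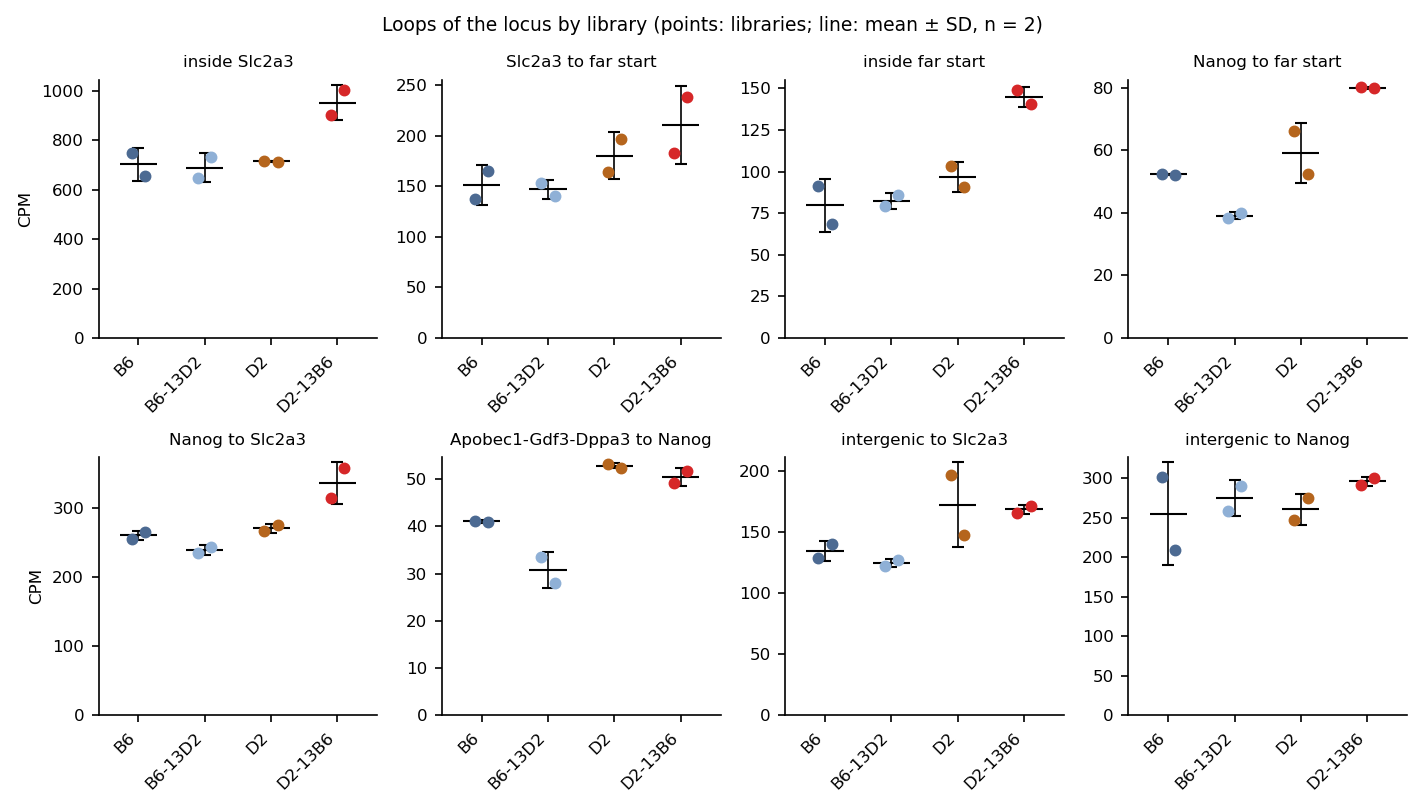
CPM of 8 loops of the locus by line. Points are libraries, and lines with bars give mean and SD (n = 2); each panel starts at 0 and has its own scale. The D2-13B6 line has the highest mean in the loops inside and between the Slc2a3 and Foxj2 anchors, both D2-background lines are higher in the loop from the Apobec1, Gdf3 and Dppa3 anchor to Nanog, and the lines overlap in the intergenic loop to Nanog.

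Each D2-background line was also set against the same 4 B6-background libraries. These comparisons share their control libraries and were added after the data were seen. In D2 alone, 0 of the 66 loops were called (3.84% of all loops; 6 unadjusted), with a smallest edgeR FDR of 0.0863. This does not show that the lines differ: the direct test, D2 against D2-13B6, called 1 loop, as given above. In D2-13B6 alone, 6 were called, all higher (9.92% of all loops). The Nanog to Slc2a3 loop was among them (0.43, edgeR FDR 0.00264), and the loop from the Dppa3 anchor to Nanog was not (edgeR FDR 0.11). The loop inside the Foxj2 anchor was at 0.24 in D2 (SE 0.18, edgeR FDR 0.575) and 0.82 in D2-13B6 (SE 0.15, edgeR FDR 1.65e-06). The loop inside the Slc2a3 anchor was at 0.03 in D2 and 0.45 in D2-13B6 (edgeR FDR 5.77e-05). The loops from the Dppa3 anchor to Nanog (0.58 and 0.51) and from the intergenic anchor to Slc2a3 (0.42 and 0.38) had values close to each other in D2 and D2-13B6.

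Summed over all loops of an anchor, the same order appeared along the locus. Anchor sums are in CPM of anchor counts, a scale of their own. The Slc2a3 anchor had 777 and 721 in B6, 732 and 781 in B6-13D2, 774 and 784 in D2, and 936 and 1086 in D2-13B6. The Foxj2 anchor had 225 and 226 in B6, 226 and 215 in B6-13D2, 246 and 254 in D2, and 313 and 341 in D2-13B6. The Nanog anchor had 420 to 499 in the other 6 libraries and 547 and 633 in D2-13B6, while the Dppa3 anchor had 214 to 243 and 255.3 and 259. At the Slc2a3, Foxj2 and Nanog anchors both D2-13B6 libraries were the highest. At the Dppa3 anchor their order depended on the scaling: in the gene sums of the same anchor they had 232.4 and 233.3 CPM, beside 232.9 in a D2 and 233.2 in a B6-13D2 library.

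In the edgeR fit of anchor sums, 2 of the 4 anchors were called in the background effect (24.8% of all tested anchors were). These were Slc2a3 (0.24, SE 0.073, edgeR FDR 0.0097) and Foxj2 (0.36, SE 0.081, edgeR FDR 0.000319), and neither Nanog (0.16, edgeR FDR 0.106) nor Dppa3 (0.07, edgeR FDR 0.597) passed. With D2-13B6 left out of the contrast 0 were called, and without D2-13B6 replicate 2 there was 1. The same 2 anchors were lower in D2 than in D2-13B6 (5.73% of all), at -0.38 (edgeR FDR 0.012) and -0.39 (edgeR FDR 0.0202). Leaving out either D2 library or D2-13B6 replicate 2 left 0 of these calls, and leaving out D2-13B6 replicate 1 left 1. Both calls were also lost with library totals (-0.25 and -0.26) and with the abundance trend removed (-0.02 and -0.18), where little of the Slc2a3 difference was left. Against the B6-background libraries, 3 anchors were higher in D2-13B6 (25.9% of all), Nanog included at 0.32 (SE 0.090, edgeR FDR 0.00471), and 0 in D2 (14.6%; 0 unadjusted). D2 against B6 called 0 (11.8%; 0 unadjusted), B6-13D2 against B6 0 (5.27%; 0 unadjusted), the interval 0 (6.16%; 2 unadjusted) and the interaction 0 (4.83%; 3 unadjusted), and DESeq2 called 0 in these 4.

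**Figure D5:**
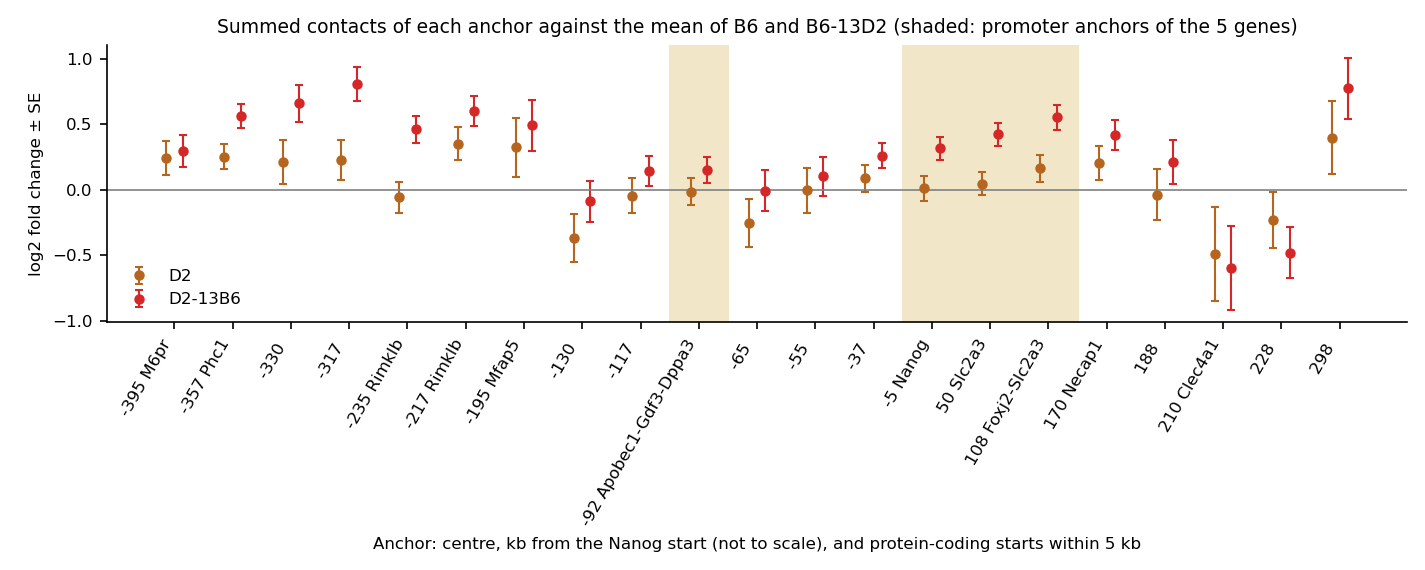
Log2 fold change with SE of the summed contacts of each anchor against the mean of B6 and B6-13D2, for D2 and D2-13B6, in order along the locus. Anchors are labelled by the distance of their centre from the Nanog start in kb and by protein-coding starts within 5 kb; shading marks the 4 promoter anchors. D2-13B6 lies above D2 at each promoter anchor, at 0.15 for the Apobec1, Gdf3 and Dppa3 anchor up to 0.56 for the Foxj2 anchor, and similar values stand at anchors outside the shading, such as Phc1 at 0.56.

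Of 17 other tested anchors of the region, 9 were higher and 0 lower in D2-13B6 against the B6-background libraries by edgeR (25.9% of all anchors were called). These sums include loops to the 4 promoter anchors, with 3398 counts at the intergenic anchor, and so share counts with the sums above. Among the 9 were the Phc1 anchor at a log2 fold change of 0.56, the 2 Rimklb anchors at 0.46 and 0.60, the Necap1 anchor at 0.42 and the intergenic anchor at 0.26 (edgeR FDR 0.0332). The Clec4a1 anchor was at -0.60 and the anchor at chr6:122930001-122940000 at -0.48, neither past the threshold, and the anchors at chr6:122575001-122580000 and chr6:122640001-122645000 at -0.09 and -0.01. Among 59 tested loops within 2 Mb that touched no promoter anchor of the 5 genes, the median in the same comparison was 0.32, against 0.27 for the 66 loops, and 6 of the 59 were called (10.2%, beside 9.92% of all loops). The median over the other 2387 tested loops of chromosome 6 was -0.11, and that over all loops 0.05. Leaving chromosome 11 out of the fit and scaling left each of the 6 background calls in place. The part of the chromosome 11 share in these values was otherwise not tested.

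Single genes were also tested as sums. Over merged anchors Apobec1, Gdf3 and Dppa3 have identical sums because they share 1 anchor. Of the 5 genes, 1 was called in the background effect (24.0% of all genes), Slc2a3 at 0.21 (SE 0.064, edgeR FDR 0.0106), and the same 1 was lower in D2 than in D2-13B6 (8.58% of all genes), at -0.31 (edgeR FDR 0.0173). The background call was lost without D2-13B6 replicate 2 and with D2-13B6 left out of the contrast, and the other call, among other settings, without either D2 library or D2-13B6 replicate 2, with library totals, with the trend removed and with loops inside 1 anchor left out. Calls were 0 in D2 against B6 (10.2%; 0 unadjusted), B6-13D2 against B6 (5.71%; 0 unadjusted), the interval (8.58%; 1 unadjusted) and the interaction (6.49%; 1 unadjusted), with 0 from DESeq2 in each.

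Sums over the 5-kb bins that hold a start, added after the data were seen, separate the 3 genes of the Dppa3 anchor. They take every bin with an annotated start of a gene, so Gdf3 and Slc2a3 take several bins. Slc2a3 also takes the bin of its far start, inside the Foxj2 anchor. In B6 replicate 1 its sum was 470 counts, against 182 in its main start bin alone. Nanog was then called in the background effect (15.9% of all genes), at 0.29 (SE 0.10, edgeR FDR 0.0436), and 2 genes were lower in D2 than in D2-13B6 (5.57% of all genes), Nanog at -0.49 (SE 0.14, edgeR FDR 0.0192) and Slc2a3 at -0.36 (SE 0.11, edgeR FDR 0.0275). With D2-13B6 left out of the contrast, Nanog was at 0.04 (edgeR FDR 0.907). The Nanog background call was kept under 4 of 10 alternatives (edgeR FDR 0.0278 to 0.244), and its losses included those without B6 replicate 2, D2 replicate 1, either B6-13D2 library or D2-13B6 replicate 2. Against D2-13B6, the Nanog call was kept under 6 of 10 and the Slc2a3 call under 4 of 10. Among other settings, both were lost with library totals and without either D2 library or D2-13B6 replicate 2, and that of Slc2a3 also without D2-13B6 replicate 1. Apobec1 (0.14), Dppa3 (0.10) and Gdf3 (-0.01) did not pass in the background effect, with edgeR FDR of 0.461 to 0.982. D2 against B6 (5.65%), B6-13D2 against B6 (2.88%), the interval (3.97%; 2 unadjusted) and the interaction (4.32%; 1 unadjusted) called 0 genes, the first 2 with 0 unadjusted, and DESeq2 was not run on these sums.

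At the resolution of bin pairs, 160 of the 1333 pairs that touch a start could be tested, and 2 were called in the background effect (4.4% of all 73375 tested pairs). Both were higher in the D2 background and lay inside 1 anchor. The pair inside the Foxj2 anchor (chr6:122800001-122805000 with chr6:122825001-122830000) had 2, 2, 1 and 1 counts in the B6-background libraries and 8, 3, 9 and 7 in the D2-background ones. The pair inside the Slc2a3 anchor (chr6:122745001-122750000 with chr6:122775001-122780000) had 3, 2, 2 and 5 against 4, 9, 13 and 13. With D2-13B6 left out of the contrast their values were 2.23 (edgeR FDR 0.117) and 1.48 (edgeR FDR 0.256), and neither passed. Leaving out B6 replicate 1 or D2-13B6 replicate 1 left 0 of the 2 calls, and leaving out B6 replicate 2, B6-13D2 replicate 2 or either D2 library left 1. By edgeR, 0 pairs were called between D2 and B6 (0.901%; 3 unadjusted), for the interaction (0.00681%; 9 unadjusted) and for the interval on average (0.102%; 6 unadjusted). The interval in a B6 genome gave 0 (0.0627%; 6 unadjusted), as it did in a D2 genome (0.0695%; 8 unadjusted). DESeq2 was not run on bin pairs.

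Shares of the counts were compared between backgrounds over libraries. The 194 loops took 0.244% and 0.231% of all counts in B6, 0.226% and 0.229% in B6-13D2, 0.254% and 0.244% in D2, and 0.270% and 0.296% in D2-13B6. The D2-background libraries were all above the others, at 0.266% ± 0.0226 against 0.232% ± 0.00772 (SD over 4 libraries of 2 lines each). The separation was narrow, with D2 replicate 2 at 0.2441% just above B6 replicate 1 at 0.2436%. The exact permutation test over libraries (two-sided) gave p = 0.0286, the smallest that 4 against 4 allows, and 0.143 after adjustment over 5 shares. Each side is 2 lines with technical replicates, which the permutation treats as independent, so this p and those below cover libraries and not lines. The share of these counts that joined 2 promoter anchors was 21.6% against 20.2% (exact permutation p = 0.0857, adjusted 0.214).

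The share of each promoter's counts that stayed inside its own anchor was 21.9% against 23.2% for Nanog (exact permutation p = 0.171), 14.3% against 15.6% for the Dppa3 anchor (exact permutation p = 0.314) and 43.1% against 42.9% for Slc2a3 (exact permutation p = 0.886). Adjusted over the 5 shares these p-values were 0.286 to 0.886. The sign of the Slc2a3 difference depended on the library left out, from -1.05 to 1.22 percentage points.

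The neighbours of the locus and the wider pluripotency network give the setting for these values. Of 12 neighbouring genes, 7 had enough contacts to test, and 4 were higher in the D2 background and 0 lower (24.0% of all genes were called), with the smallest FDR at Phc1 (0.36, edgeR FDR 8.81e-05), Foxj2 (0.31) and Rimklb (0.25). Foxj2 shares its anchor with the far start of Slc2a3 and so shares counts with it. The sums of Phc1 and Rimklb also include their loops to the promoter anchors. Of 30 genes of the pluripotency network, all tested, 6 were higher and 2 lower in the D2 background, and 22 did not pass, again beside 24.0% of all genes called. The 2 lower were Nr5a2 (-0.41) and Sall4 (-0.22), a nuclear receptor and a zinc finger factor, named after their values were seen. Of the same list 5 were lower in D2 than in D2-13B6 and 0 higher (8.58% of all genes were called), and its summed gene sums were 6433 to 6771 CPM in D2-13B6, beside 5567 to 6078 CPM elsewhere. In the background effect the 3 of smallest FDR were Tdgf1, a Nodal co-receptor (0.51), Sox2, a partner of the octamer factor Pou5f1 (0.43), and Lefty1, a Nodal antagonist (0.36). The median of the list was 0.06, beside 0.12 for the Nanog gene sum and 0.00 for all genes.

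By the profile of gene sums over the 8 libraries (Pearson r of log2 CPM with Nanog, as a description over libraries of 4 lines), the genes outside the locus most like Nanog were Eml3 (r = 0.982), Tut1 (r = 0.978) and Mta2 (r = 0.978), among 11585 genes. They are neighbours on chromosome 19, and Tut1 and Mta2 share all counts. Like Nanog, Eml3 was highest in D2-13B6, at 698 and 762 CPM, with 567 to 661 CPM elsewhere. Within the locus r was 0.891 for Slc2a3 and 0.464 for the shared sum of Apobec1, Gdf3 and Dppa3.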

How the data were processed

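H3K27ac HiChIP was measured in 8 libraries of 4 mouse stem cell lines. The deposited tables hold raw read-pair counts per loop and per pair of 5-kb bins, made by the authors; BWA 0.7.18, SAMtools 1.19.2, edgeR 3.34.1 and mm10 are named in the submitters' processing notes, and the loop caller is not given in the sources used here. Gene starts came from GENCODE M21 (GRCm38). Counts were tested with edgeR 4.0.16 (R 4.3.3; quasi-likelihood test, TMM scaling, 1 mean per line, all 8 libraries in 1 fit) over the whole table, with Benjamini-Hochberg adjustment and a threshold of 0.05. Features needed 5 counts (loops, bin pairs) or 10 (anchor and gene sums) in at least 2 libraries. The SE was taken as the log2 fold change over the root of F. The scripts were tested on simulated data.

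Alternatives were DESeq2 1.42.0, library totals, RLE factors, removal of an intensity trend, other filters, a replicate block and leaving out libraries. The genes and lists were chosen with earlier results of these data known. Named were all tested loops between or inside promoter anchors, called loops, the strongest other partners of each gene, the 5 most shared partners, the 3 genes most like Nanog, and the 3 list genes of smallest FDR. Replicates are technical, so p-values measure only the spread between libraries.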

Additional observations from a re-analysis of the deposited data

How the results depend on the processing

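With D2 against D2-13B6, the 1 loop call became 0 with library totals, the stricter filter, RLE factors, the trend removed, no filter and the replicate block, and 0 to 1 when 1 library was left out. The 2 anchor calls became 0 with library totals and with the trend removed, and 0 to 3 when 1 library was left out. The 1 gene-sum call became 0 with library totals, the trend removed, the replicate block and loops inside 1 anchor left out, 2 with the 5-kb bins that hold a start, and 0 to 1 when 1 library was left out. In the background effect, the 6 loop calls became 0 with DESeq2, 0 with no filter, 3 without the anchor at the far start of Slc2a3 and 0 with D2-13B6 left out of the contrast, and 2 to 7 when 1 library was left out. The 2 anchor calls became 0 with D2-13B6 left out of the contrast and 1 to 3 when 1 library was left out. The 1 gene-sum call became 0 with D2-13B6 left out of the contrast, 2 with D2 left out of the contrast and 0 to 1 when 1 library was left out. The 2 bin-pair calls became 1 with the stricter filter and 0 to 2 when 1 library was left out. The interaction of anchors and the interval effect of gene sums each gave 0 to 1 when 1 library was left out. With no filter, 169 of 263489 loops of the series were called in the background effect and 0 in D2 against D2-13B6. The difference in the Slc2a3 share inside its own anchor ran from -1.05 to 1.22 points when 1 library was left out. Shared partners fell to 8 from 15 at a minimum of 10 counts, where fewer loops are tested. For the other settings the cause was not tested. The omissions of whole lines and of the far anchor, and the start bins, were chosen after seeing the data. Replicate numbers did not pair the libraries (correlations of deviations between lines from -0.0443 to 0.00669 over all tested loops, and from -0.20 to 0.29 over the loops of the locus), and the replicate block left 4 background loop calls, without those inside the Slc2a3 anchor (FDR 0.0652) and from the Dppa3 anchor to Nanog (FDR 0.0547), and ended the start-bin calls of Nanog in the background effect (FDR 0.062) and of Slc2a3 against D2-13B6 (FDR 0.0596). For single loops, anchors and genes, 458 values under alternatives kept their direction and side of the threshold, 74 no longer passed, 6 newly passed and 37 turned in direction. The turned values belong to 12 of 40 single results, and 0 of the 37 concern a call. In the background effect, the loop from the Dppa3 anchor to the Foxj2 anchor turned to 0.0037 with the trend removed, 0.012 with no filter and 0.0074 without chromosome 11. The sum of the Gdf3 start bins turned to 0.0013 with library totals. For D2 against D2-13B6, the loop from the Dppa3 anchor to Slc2a3 turned to 0.084 with library totals, 0.041 with the stricter filter, 0.00017 with RLE factors and 0.051 with the trend removed, and the loop to the Foxj2 anchor to 0.10, 0.061 and 0.020 with the first 3 of these settings. With no filter the loop from the Dppa3 anchor to Nanog turned to -0.098 and that from the intergenic anchor to Slc2a3 to -0.13. The Dppa3 anchor turned to 0.042 with the trend removed and the Dppa3 start bin to 0.029 with library totals. With 1 library left out, the background values ran from -0.12 to 0.010 inside the Dppa3 anchor and -0.13 to 0.030 from it to Slc2a3. They ran from -0.24 to 0.17 from the Dppa3 anchor to the Foxj2 anchor, -0.027 to 0.31 at the Dppa3 start bin and -0.10 to 0.082 over the Gdf3 start bins. For D2 against D2-13B6 they ran from -0.16 to 0.15 between the Dppa3 anchor and Slc2a3, -0.35 to 0.49 between it and the Foxj2 anchor, -0.16 to 0.24 between the intergenic anchor and Slc2a3, -0.33 to 0.13 at the Dppa3 start bin and -0.090 to 0.26 at that of Apobec1. The 128 untested loops, with a median of 3 counts and spans of 102.5 to 2025 kb, give no comparison at this depth.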
